A study of Drosophila melanogaster with 40 samples.

Results

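The comparison covers the full span of adult age that was sampled in Hsp70-null flies: legs of males at day 47 after eclosion against legs of males at day 7, both untreated. Its members were taken by label, as the 4 untreated Hsp70-null libraries at day 47 and the 4 at day 7, which are 8 of the 40 libraries of the series. The Hsp70-null flies carried Df(3R)Hsp70A and Df(3R)Hsp70B on a w1118 background, a pair of deletions that removes 6 genes of the inducible chaperone Hsp70 (Hsp70Aa, Hsp70Ab, Hsp70Ba, Hsp70Bb, Hsp70Bbb and Hsp70Bc). The comparison strain was w1118, which carries the Hsp70 genes. Each library was made from polyadenylated RNA of the legs of a pool of 15 males, taken under ether, with strand-specific preparation. The study sequenced both strains untreated at days 7, 23 and 47, at day 23 after 19 days of training, and at day 7 directly after 2 h of exercise, with 4 pools in each of 10 groups. Each strain was 1 stock, from the Vienna collection for w1118 and the Bloomington collection for Hsp70-null, so that a difference between the strains cannot be told apart from any other difference between the stocks. The p-values below measure the spread between pools of flies of a stock.

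Hsp70 proteins bind unfolded polypeptides and help to refold them or hand them over for degradation, and in flies the inducible genes are switched on strongly by heat. The Hsc70 genes encode constitutive relatives that remain in these flies. A leg holds tubular muscle driven by motor neurons, wrapped in a cuticle with many taste hairs and surrounded by fat body, tracheae and hemolymph. Aging of fly muscle is known for a loss of energy metabolism transcripts and for an accumulation of damaged proteins, which chaperones, the proteasome and autophagy remove.

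The deletion was visible in the counts. The 5 deleted genes other than Hsp70Bb had 5 counts in all over the 8 Hsp70-null libraries, against 609 over the 8 untreated w1118 libraries of the same ages. Hsp70Bb was not absent: it had 36, 32, 18 and 38 counts at day 7 and 449, 47, 44 and 43 at day 47, with a log2 fold change of 1.32 that did not pass the test (edgeR adjusted p = 0.283). The libraries held 24190456 to 28532988 counts at day 7 and 35144736 to 38184917 at day 47. All 18 leg markers had a median of at least 1 CPM (counts relative to library size) over the 40 libraries. All 14 eye and all 10 neuron markers did so as well, so that this measure cannot identify the tissue. Pairs of replicate libraries differed by far more than counting noise, with a chi-square per degree of freedom of 72.2 to 189.

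Markers of other tissues were uneven among the 8 libraries. The summed level of 38 testis genes, in CPM of the library total, was 34.9, 4037, 33.9 and 13.5 at day 7 and 24.96, 101, 18.5 and 18.8 at day 47, so that day 7 replicate 2 stood apart. The summed level of 14 photoreceptor genes was 1049, 384, 806 and 8218 at day 7 and 122, 141, 81.9 and 1261 at day 47. That of 26 gut genes, mostly digestive proteases and amylases, was 1292, 231, 505 and 2213 at day 7 and 3720, 12260, 9291 and 4436 at day 47. Of these genes 25 were tested, and 5 were called higher and 0 lower. Members differed, and Jon25Biii, Jon99Fii, Jon65Ai and Jon44E were highest in day 7 replicate 1. In contrast, Mal-A1, Mal-A6, alphaTry and betaTry were higher in each day 47 library than in each day 7 library. The gut sums did not overlap (exact permutation test, two-sided, p = 0.0286, the smallest that 4 against 4 allows; Benjamini-Hochberg adjusted p = 0.129 over 9 tissues). The leg marker sum was 2930, 2724, 2172 and 2057 at day 7 and 1715, 1789, 1571 and 1650 at day 47, also without overlap and with the same p-values; it is made up mostly of the leg actin Act79B, and 2 of the 18 genes were called higher and 2 lower. Sums of fat body genes ran from 3593 to 8226 at day 7 and from 7814 to 11140 at day 47 (exact p = 0.0857). No marker was at 0 in all 8 libraries in the testis, eye and gut lists.

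**Figure D1:**
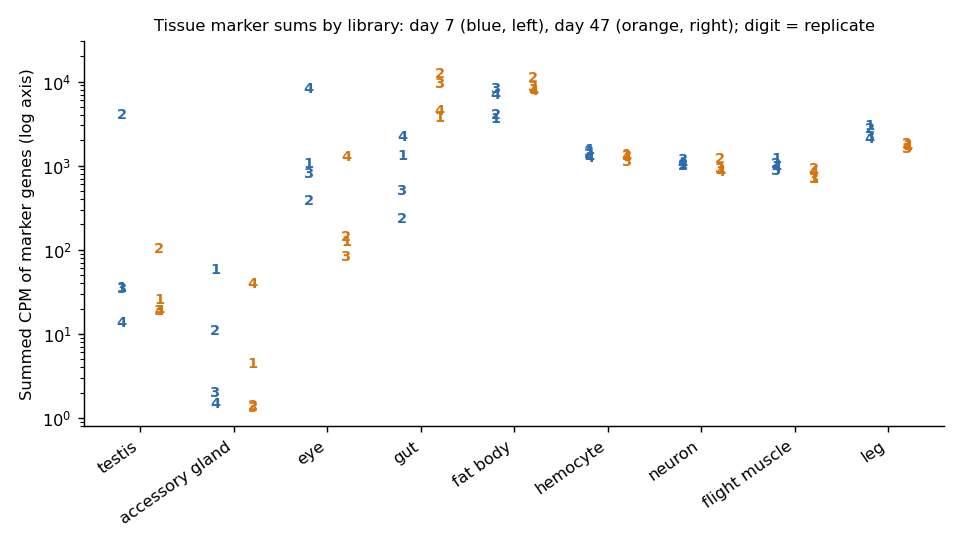
Summed level of the marker genes of each tissue in each of the 8 Hsp70-null libraries, in CPM of the library total on a log axis, with day 7 and day 47 side by side and digits giving the replicate. A single day 7 library lies at 4037 CPM for the testis, another at 8218 CPM for the eye, and all 4 day 47 libraries lie above all 4 day 7 libraries for the gut.

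A large share of the leg transcriptome of Hsp70-null flies differed between day 7 and day 47. Library depth did not overlap between the ages either, so that age cannot be told apart from any other difference between the libraries of both ages. Of 12939 features tested, 3744 (28.9%) passed an adjusted p of 0.05 in edgeR's quasi-likelihood test, 1816 higher at day 47 (14%) and 1928 lower (14.9%). At least a doubling or halving (a log2 fold change of at least 1 in size) was reached by 1149 of them, 455 higher and 694 lower. The 4 day 47 and 4 day 7 values did not overlap for 3629 features (28%), of which 2833 were among those called. The median log2 fold change of all features was -0.02, because the trimmed mean of M values (TMM), the scaling used, places the bulk of genes near 0. With scaling by total counts alone, 6633 features were called, 5652 higher and 981 lower, and the median was 0.30; the share of higher among called features was 85.2% rather than 48.5%. Directions below are therefore relative to the bulk of genes, and a shift of 0.32 on the log2 scale separates both scales. In bulk RNA, fewer cells of a type and less RNA per cell cannot be told apart.

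Day 7 replicate 2, the library with testis transcripts, decided part of the count. Without it, 2708 of 13133 features were called (20.6%), 1309 higher (9.97%) and 1399 lower (10.7%), and 2537 of the original calls remained, 1213 higher and 1324 lower. The 1207 lost calls were 603 higher and 604 lower, while 171 calls were gained. Among the lost lower calls, 289 had a log2 fold change of -2 or beyond with all libraries, and 264 of those stood above -1 without replicate 2, where 144 of all lost lower calls also changed sign. Among the lost higher calls, 90 had a log2 fold change of 2 or more. Of the lost lower calls, 293 had a mean under 5 CPM. Leaving out day 7 replicate 4, with the highest eye marker sum, as well gave 1894 calls (871 higher and 1023 lower), and entering the testis, eye and gut marker sums as covariates gave 1955 (907 higher and 1048 lower). The gut sum did not overlap between the ages, so that the fit with covariates cannot tell age apart from gut RNA. A call lost in that fit is therefore not assigned to either.

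CG18628 showed this pattern at its plainest, with 0.349, 1066, 1.86 and 0.516 CPM at day 7 and 0.452, 0.269, 0.183 and 0.313 at day 47. Only day 7 replicate 2 was high, and the other 7 libraries lay together. Its log2 fold change of -9.75 (SE 2.07, edgeR adjusted p = 0.000619) had an adjusted p of 0.417 without that library. CG6628 (53.3 CPM in that library and at most 0.0976 in the other 7) and CG10407 (245 CPM, and at most 3.44 in the other 7) behaved alike, as did CG42827 at 17.9 CPM against at most 0.516. Cyt-c1L, a cytochrome c1-like gene, had 7.04 CPM there and 0.209 to 1.00 in the others. CG9737 had 3.00 CPM there against 0.0732 to 0.654, and its call was lost as well (adjusted p = 0.078). A gene written below as having risen or fallen between the ages kept its call without day 7 replicate 2 unless the text says otherwise. Counts of called members in each list below stand beside the shares over all features, 14% higher and 14.9% lower. Without day 7 replicate 2 these shares were 9.97% and 10.7%. With total counts 5652 of 12939 features were higher and 981 lower.

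**Figure D2:**
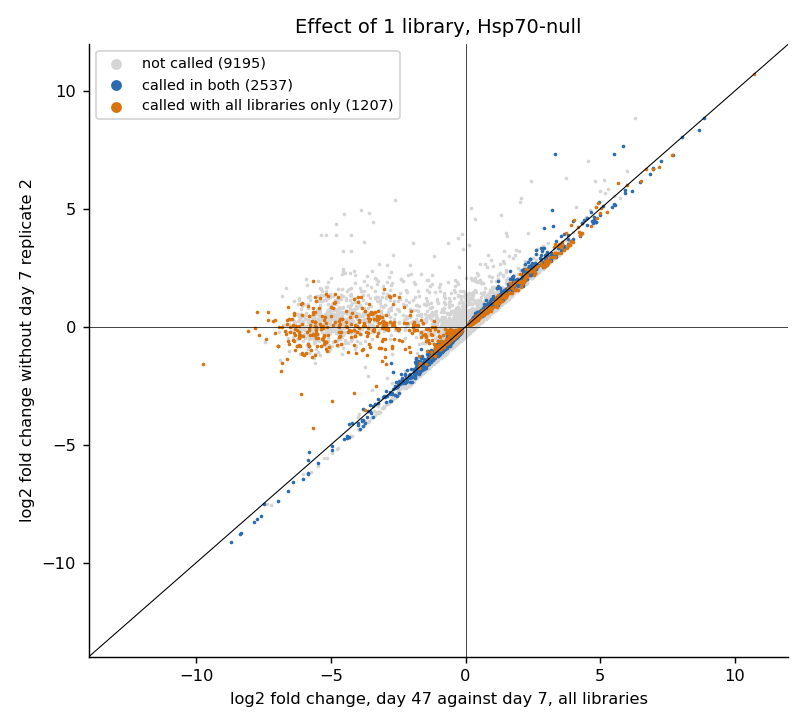
Log2 fold change of each tested feature (day 47 against day 7) with all libraries on the x axis and without day 7 replicate 2 on the y axis, coloured by whether the call held in both, was made with all libraries only, or was not made with all libraries. The 2537 calls made in both lie along the diagonal, and an arm of strongly negative values on the x axis collapses towards 0 on the y axis.

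Muscle transcripts fell more often than they rose. Of 32 sarcomere genes, 22 fell and 3 rose, with a median log2 fold change of -0.62 against -0.02 over all features; without day 7 replicate 2, 20 of the falls and all 3 rises remained. Of 13 calcium-handling genes, 8 fell and none rose (median -0.52), and all 8 remained. With total counts the sarcomere median was -0.28 with 15 falls, and that of calcium handling was -0.19 with 2. Among the lists in the plot of gene list medians, all 4 day 47 libraries lay below all 4 day 7 libraries for both. The summed level of 5 flight muscle genes went from 870 to 1209 CPM at day 7 to 685 to 909 at day 47. This sum is made up mostly of Strn-Mlck (768 to 1062 CPM at day 7 and 625 to 834 at day 47). Of the 5 genes 4 were called lower, and fln went from 20.3 to 43.1 CPM of the library total to 4.24 to 9.87. The part of flight muscle cells in the sarcomere result was not tested.

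SERCA, the pump that returns calcium to the sarcoplasmic reticulum and so ends a contraction, had 14938, 11983, 10642 and 8680.1 CPM at day 7 and 2046, 2284, 1992 and 1888 at day 47. The lowest day 7 library was above every day 47 library by a wide margin. Its log2 fold change was -2.49 (SE 0.135, edgeR adjusted p = 1.28e-14), and the day 23 mean of 4462 CPM (SD 478, n = 4) lay between both ages. Scp1, a sarcoplasmic calcium-binding protein, had 5819, 4872, 2215 and 2203 CPM at day 7 and 177, 158, 217 and 263 at day 47. Its log2 fold change of -4.21 (SE 0.286, adjusted p = 1.32e-12) was the fifth largest fall under the rule for named genes, and most of the fall had taken place by day 23 (mean 348 CPM, SD 56.1). Day 7 replicates 1 and 2 were higher than 3 and 4 for both genes. RyR, the channel that releases the same calcium store, fell by 0.80 on the log2 scale (SE 0.181, adjusted p = 0.00129), and Calx, a sodium-calcium exchanger, fell by 0.60. CaMKII, a calcium-dependent kinase, fell by 0.52, and neither Calx nor CaMKII passed with total counts. The sarcolamban genes SclA and SclB, which encode small SERCA regulators, fell by 0.60 each; their transcripts overlap on the same strand, so that the counts cannot be assigned between them with certainty, and SclB did not pass with total counts.

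In the contractile apparatus, Mf (myofilin, a thick filament protein) had 6464, 5558, 4529.6 and 4572 CPM at day 7 and 2872, 2815, 2642 and 2682 at day 47, a fall of 0.94 on the log2 scale (fold change -0.94, SE 0.104, adjusted p = 2.95e-08). Zasp66, a Z-disc protein, went from a mean of 2751 CPM (SD 288) to 1290.5 (SD 78.2), a log2 fold change of -1.09, and tmod (tropomodulin, which caps actin filaments) from 514 (SD 67.1) to 274 (SD 25.3), a log2 fold change of -0.91. None of the 3 overlapped between the ages. Act79B, the actin of leg muscle, went from 1972 CPM (SD 631) to 745 (SD 58.5), a log2 fold change of -1.40 (SE 0.178). Mhc, the muscle myosin heavy chain, had 8033, 5723, 5535 and 4879 CPM at day 7 and 4079, 5096, 4110.1 and 4206 at day 47, and its ages overlapped. Its log2 fold change of -0.47 (adjusted p = 0.0372) did not pass without day 7 replicate 2 (adjusted p = 0.0531).

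The 3 sarcomere genes that rose were unc-45, Act57B and TpnC73F. unc-45, a chaperone that folds myosin, had 46.2, 43.8, 53.5 and 49.4 CPM at day 7 and 89.7, 89.1, 94.8 and 112 at day 47, without overlap (log2 fold change 1.00, SE 0.0986, adjusted p = 3.04e-09). Act57B, an actin most abundant in larval muscle, had 519.8, 439, 574 and 566 CPM at day 7 and 801, 1125, 962 and 1105 at day 47 (0.93, SE 0.122, adjusted p = 6.98e-07), also without overlap. TpnC73F, a troponin C, had 3.10, 3.45, 6.02 and 6.23 CPM at day 7 and 12.99, 19.3, 25.5 and 20.8 at day 47 (2.06, SE 0.388, adjusted p = 0.000148). All 3 were thus higher in each day 47 library than in each day 7 library. The annotation places snoRNA:660 inside Act57B, so that a small part of its count is shared.

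**Figure D3:**
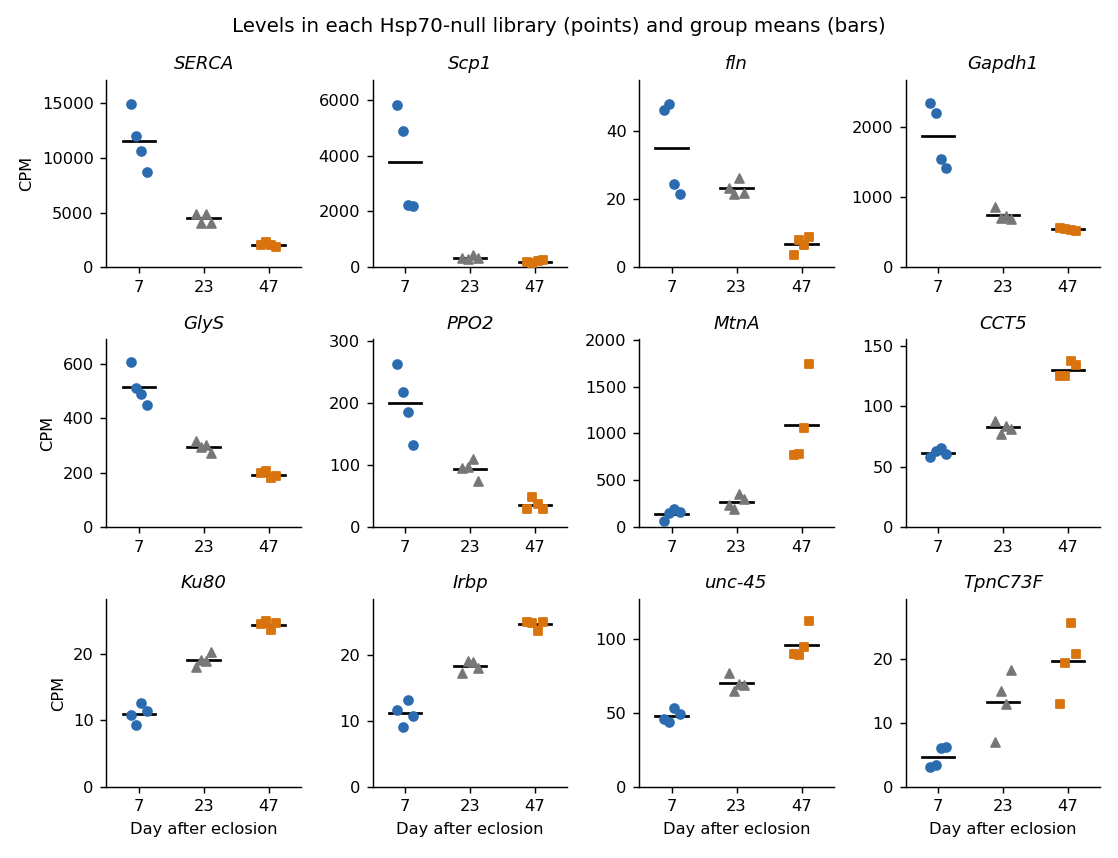
Level of 12 genes in each Hsp70-null library at days 7, 23 and 47 (linear axes in CPM after TMM scaling, 4 libraries an age, bars at group means). SERCA, Scp1, fln, Gapdh1, GlyS and PPO2 go down from day 7 to day 47 and MtnA, CCT5, Ku80, Irbp, unc-45 and TpnC73F go up, with the ages not overlapping.

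Energy metabolism genes fell in each of 5 lists. In glycolysis 12 of 13 genes fell (median -0.84), in the TCA cycle 13 of 16 (-0.56), in trehalose and glycogen use 6 of 8 (-0.49), in complex I of the respiratory chain 21 of 33 (-0.44), and in complexes II to V 32 of 34 (-0.65). No gene of these 5 lists rose. Without day 7 replicate 2, the falls of glycolysis, of the TCA cycle and of trehalose and glycogen stayed at 12, 13 and 6, while complex I kept 19 and complexes II to V kept 27. With total counts the falls numbered 10, 10, 3, 9 and 19 in the same order, and then 1, 2, 0, 5 and 1 genes of these lists were called higher.

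Gapdh1, a glyceraldehyde-3-phosphate dehydrogenase, had 2333, 2187, 1538 and 1415 CPM at day 7 and 565, 551, 525 and 515 at day 47, with no overlap (log2 fold change -1.79, SE 0.149, adjusted p = 9.92e-11). Pfk, which catalyses the committed step of glycolysis, went from a mean of 594 CPM (SD 80.8) to 292 (SD 19.1), a log2 fold change of -1.02. GlyS (glycogen synthase) had 605, 511, 488 and 449 CPM at day 7 and 199, 204, 180.2 and 187 at day 47 (-1.41, SE 0.0924, adjusted p = 8.74e-13), and GlyP, which breaks glycogen down, went from 1703 CPM (SD 308) to 617 (SD 38.0). Enzymes of glycogen synthesis and of its breakdown thus fell together. In the TCA cycle, kdn (citrate synthase) had 1702, 1423, 1183 and 965 CPM at day 7 and 435, 457, 408 and 415 at day 47, again without overlap (-1.62, SE 0.123, adjusted p = 1.38e-11). Idh3a, a subunit of isocitrate dehydrogenase, fell by 1.02 on the log2 scale.

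Among the subunits of ATP synthase, ATPsynC of the membrane ring went from 2484 CPM (SD 444, n = 4) to 1113 (SD 44.1, n = 4), a log2 fold change of -1.16 (SE 0.107, adjusted p = 7.51e-10), and ATPsynbeta of the catalytic head from 4141 (SD 805) to 1937 (SD 61.5), a log2 fold change of -1.10. ND-PDSW, a complex I subunit, had 226, 217, 159.8 and 187 CPM at day 7 and 96.2, 102, 107 and 106 at day 47 (-0.94, adjusted p = 2.81e-07). Medians of the steps from day 7 to day 23 and from day 23 to day 47, which share the day 23 libraries, were -0.55 and -0.12 for complexes II to V, -0.58 and -0.23 for glycolysis, and -0.57 and -0.05 for the sarcomere. In the mitochondrial ribosome 11 of 73 genes rose and 12 fell (median -0.07), of which 9 and 7 remained without day 7 replicate 2. These counts were near the shares over all features and are not read as a result about the list. With total counts 41 of the mitochondrial ribosome genes were higher and 2 lower. Lipid storage had 1 gene higher, the lipid droplet protein Jabba (1.02), and 2 lower of 16, of which mdy, an enzyme of triglyceride synthesis, fell by 0.81 and Lpin, a phosphatase on the same route, had a log2 fold change of -0.45 that was called in 5 of 8 fits leaving out 1 library each. With total counts 9 of the lipid storage genes were higher and 1 lower.

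**Figure D4:**
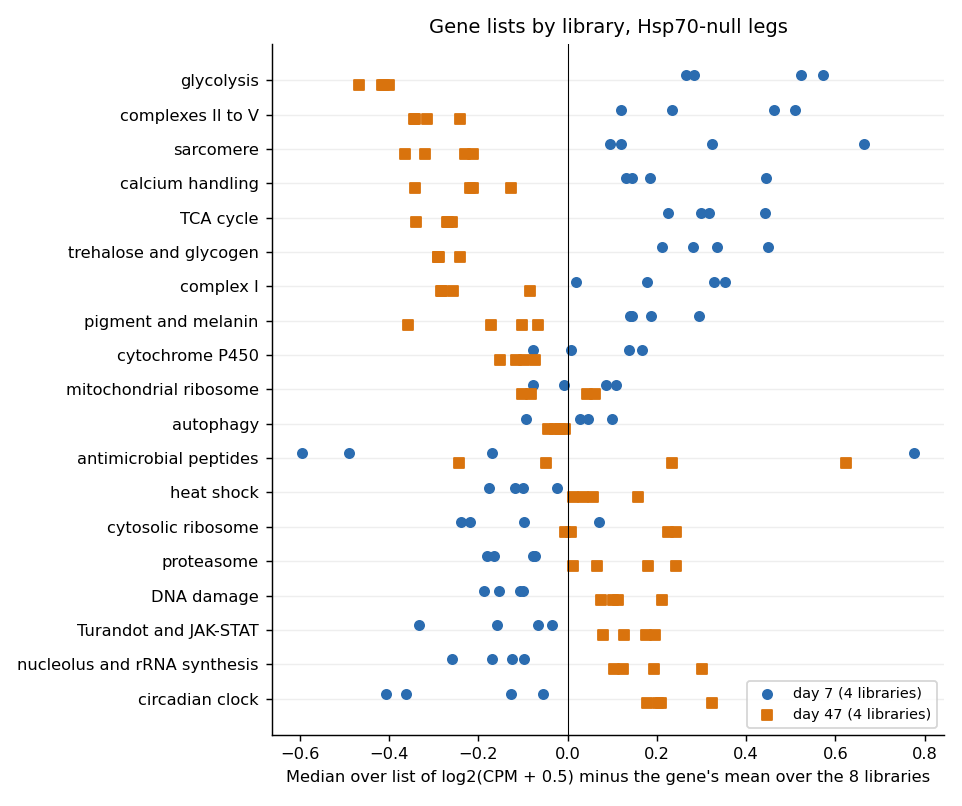
Median over each gene list of log2(CPM + 0.5) minus the gene's mean over the 8 libraries, for each Hsp70-null library; circles are the 4 day 7 and squares the 4 day 47 libraries. Muscle and energy metabolism lists lie to the right at day 7 and to the left at day 47, while the proteasome, DNA damage, nucleolus and clock lists lie the other way round.

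Calls in the proteasome, cytosolic ribosome and nucleolus lists went the other way, by smaller amounts. In the proteasome, 15 of 32 genes rose and none fell (median 0.25), and 13 rises remained without day 7 replicate 2. Rpn8, a regulatory lid subunit, had 80.4, 72.4, 87.1 and 80.8 CPM at day 7 and 111, 106, 114 and 128 at day 47, without overlap (log2 fold change 0.52, SE 0.0894, adjusted p = 4.88e-05). In the cytosolic ribosome, 23 of 77 genes rose and none fell (median 0.23), but only 12 of the rises remained without that library, and among them RpL35 went from 519 CPM (SD 78.6) to 794 (SD 85.3), a log2 fold change of 0.61. The library medians of the cytosolic ribosome list overlapped between the ages, with 0.07 in day 7 replicate 4 and -0.006 in day 47 replicate 2. Its median step from day 7 to day 23 was -0.001. In the nucleolus and rRNA synthesis list, 10 of 15 rose and none fell (median 0.37). Nlp, a nucleoplasmin-like histone chaperone, had 35.1, 37.5, 38.6 and 36.7 CPM at day 7 and 48.0, 49.5, 58.2 and 54.5 at day 47 (0.51, SE 0.0950, adjusted p = 0.000147). The nucleolus calls were 7 without day 7 replicate 2 (median 0.35) and 1 when the testis, eye and gut marker sums entered the fit as covariates (median 0.26), and Nlp remained called in both.

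Among 23 heat shock and chaperone genes outside the deletion, 8 rose and 2 fell (median 0.21), and 4 of the rises and both falls remained without day 7 replicate 2. Trap1, the mitochondrial Hsp90, had 83.5, 84.5, 86.4 and 84.4 CPM at day 7 and 111, 118, 108 and 115 at day 47, which did not overlap (0.41, SE 0.0545, adjusted p = 6.73e-07). Hsp22, a small heat shock protein of mitochondria, had 91.3, 90.5, 100.05 and 117 CPM at day 7 and 184, 171, 212 and 373 at day 47 (1.24, SE 0.186, adjusted p = 6.10e-06). Its transcript overlaps CG4456 on the same strand, so that the count is uncertain. Hsc70-4, the main constitutive cytosolic Hsp70 relative, rose from 1797 CPM (SD 239) to 2501 (SD 105), a log2 fold change of 0.48 (SE 0.0876, adjusted p = 0.000109). Hsc70-1, another constitutive relative, fell by 0.61 (adjusted p = 1.38e-05).

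Autophagy moved little: 2 of 23 genes rose and 3 fell (median -0.03). Atg8a, the protein that coats autophagosomes, went from 549 CPM (SD 42.6) to 399.7 (SD 7.28), a log2 fold change of -0.46 (adjusted p = 0.000323) that did not pass with total counts. The cargo receptor ref(2)P had a log2 fold change of 0.35 (adjusted p = 0.00605) that did not pass with the testis, eye and gut covariates. In the unfolded protein response 5 of 17 rose and 1 fell, and 2 rises and the fall remained without day 7 replicate 2; Xbp1, its main transcription factor, rose by 0.38 on the log2 scale (adjusted p = 0.000767), while the endoplasmic reticulum chaperone Hsc70-3 had a log2 fold change of 0.37 that did not pass without that library (adjusted p = 0.104) or without day 47 replicate 3. With total counts autophagy had 15 genes higher and 0 lower, and the unfolded protein response 14 and 0.

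Calls among DNA damage genes were in 1 direction. Of 17 DNA damage genes, 6 rose and none fell (median 0.22), and 5 remained without day 7 replicate 2. Ku80 and its partner Irbp (Ku70), which together bind broken DNA ends, rose side by side. Ku80 had 10.8, 9.31, 12.6 and 11.4 CPM at day 7 and 24.5, 24.9, 23.7 and 24.7 at day 47 (log2 fold change 1.15, SE 0.114, adjusted p = 3.89e-09). Irbp had 11.6, 9.03, 13.1 and 10.7 CPM at day 7 and 25.03, 24.8, 23.6 and 25.03 at day 47 (1.15, SE 0.101, adjusted p = 3.34e-10). Both were higher in every day 47 library than in any day 7 library, and their day 23 means of 19.1 CPM (SD 0.889) and 18.3 CPM (SD 0.863) lay between. Gadd45, a stress-induced gene, rose by 0.76 and Xrp1, a transcription factor of the damage response, by 0.49.

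Among 24 antioxidant and metal-binding genes, 7 rose and 5 fell. MtnA, a metallothionein, had 62.8, 148, 191 and 159.7 CPM at day 7 and 772, 777, 1059 and 1739 at day 47, with no overlap (2.95, SE 0.333, adjusted p = 4.65e-08). Fer1HCH, a ferritin heavy chain, rose by 0.72. Among 34 glutathione transferases, 3 rose and 5 fell; GstD2 had 5.19, 4.45, 4.03 and 5.67 CPM at day 7 and 12.6, 27.8, 40.3 and 27.8 at day 47 (2.49, SE 0.248, adjusted p = 3.89e-09), while GstZ2 went from 121 CPM (SD 28.1) to 25.3 (SD 4.17), a log2 fold change of -2.26. GstD2 and GstZ2 thus went in opposite directions. The counts of calls among glutathione transferases were near or below the shares over all features and are not read as a result about the family. With total counts 13 antioxidant and metal-binding genes were higher and 1 lower, and 13 and 3 glutathione transferases. Without day 7 replicate 2, 5 rises and 4 falls remained among antioxidant and metal-binding genes, and 3 and 4 among glutathione transferases.

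Immune genes were mixed. The cytokine genes of the JAK-STAT pathway rose: upd3 had 0.305, 0.318, 0.217 and 0.129 CPM at day 7 and 0.632, 1.20, 2.48 and 2.32 at day 47 (2.75, SE 0.495, adjusted p = 8.18e-05), and upd2 a log2 fold change of 2.20 (adjusted p = 0.00358) that did not pass without day 7 replicates 2 and 4. Socs36E, a feedback inhibitor induced by the pathway, rose by 0.66 (adjusted p = 0.00274). Of 11 Turandot and JAK-STAT genes 6 rose and none fell, and 4 remained without day 7 replicate 2. Of 34 antimicrobial peptide genes only CecC was higher (1.87, adjusted p = 0.0426; 0.0839 without day 7 replicate 2), and Drsl4 and Drsl5, drosomycin-like peptides, had log2 fold changes of -1.13 and -1.27 that passed, but not with the testis, eye and gut covariates. The library medians of that list overlapped between the ages. In recognition and signalling 5 of 32 rose and 3 fell; key, the regulatory subunit of the kinase upstream of the NF-kappaB factor Rel, rose by 0.53, and Rel itself by 0.41, which did not pass without day 7 replicates 2 and 4. With total counts the recognition and signalling list had 18 genes higher and 1 lower, and the antimicrobial peptides 6 and 2. Without day 7 replicate 2, 4 rises and 3 falls remained in recognition and signalling. The counts of that list were near or below the shares over all features and are not read as a result about it.

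The crystal cell enzymes PPO1 and PPO2, prophenoloxidases that start melanisation, fell sharply. PPO2 had 263, 217, 185 and 132 CPM at day 7 and 28.5, 48.3, 36.3 and 29.4 at day 47 (-2.48, SE 0.253, adjusted p = 6.11e-09), and PPO1 went from 228 CPM (SD 61.1) to 37.7 (SD 8.85), a log2 fold change of -2.59. Neither gene overlapped between the ages. The summed level of 10 hemocyte genes, PPO1 and PPO2 among them, was 1231 to 1519 CPM at day 7 and 1097 to 1354 at day 47 (exact p = 0.171). Of these 10 genes 3 were called lower and 0 higher. The sum thus contains the prophenoloxidases and cannot serve as a separate comparison for them. Of 17 pigment and melanin genes, which include them, 8 fell and 1 was called higher (median -0.44), and without day 7 replicate 2 all 8 falls remained and the higher call did not. With total counts 4 were higher and 5 lower; e (ebony), which conjugates dopamine in cuticle tanning, fell by 1.78.

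Relative to the bulk of genes, calls among cytochrome P450, cuticle and odorant-binding genes were more often lower than higher. Of 80 cytochrome P450 genes 22 were lower and 8 higher (median -0.30), and 20 and 5 of these calls remained without day 7 replicate 2. With total counts that balance turned, with 10 lower and 15 higher (median 0.02). Of 49 cuticle proteins 13 fell and 4 rose (median -0.30), and with total counts 13 were lower and 12 higher (median 0.03). Without day 7 replicate 2, 11 of the cuticle falls and all 4 rises remained. Cyp313a1 had 1075, 945, 743 and 1197 CPM at day 7 and 283, 216, 189 and 194 at day 47, without overlap (-2.17, SE 0.162, adjusted p = 9.86e-12). Cpr100A, a cuticle protein, had 21.8, 17.3, 14.4 and 15.3 CPM at day 7 and 1.85, 1.64, 2.06 and 1.72 at day 47 (-3.24, SE 0.231, adjusted p = 3.93e-12), while Cpr66D went from 11.2 CPM (SD 0.720) to 35.5 (SD 2.78), a rise of 1.66. Of 38 odorant-binding proteins 12 fell and 1 rose (median -0.48, but 0.04 with the testis, eye and gut covariates, which left 6 falls and 4 rises); with total counts 11 were lower and 8 higher. The one that rose was Obp56d, with 593, 452, 746 and 983 CPM at day 7 and 2220.0, 2248, 2129.7 and 2457 at day 47 (1.71, SE 0.238, adjusted p = 1.81e-06). Its call and 10 of the 12 falls remained without day 7 replicate 2.

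Of 20 CheA and CheB genes, secreted proteins of taste hairs, 4 fell and none rose (median -0.25, but 0.08 with total counts), and 1 call remained without day 7 replicate 2. Of 23 neuromuscular junction genes 4 fell and none rose (median -0.27, but 0.07 with total counts), and 2 remained. Over all features 14.9% were called lower, and 10.7% without that library, so that these few calls are not read as a result about either list. Chemoreceptors had 3 higher and 3 lower of 50, with a positive median of 0.22. The basement membrane list had 3 higher and 1 lower of 17, of which 2 and 1 remained without day 7 replicate 2. Insulin and FOXO signalling had 4 higher and 2 lower of 17, of which 3 and 1 remained without that library. With total counts the higher and lower calls were 16 and 1 for chemoreceptors, 8 and 0 for the basement membrane, and 12 and 0 for insulin and FOXO signalling.

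Circadian clock genes changed in both directions, 5 of 9 higher and 2 lower, of which 3 and 2 remained without day 7 replicate 2. Clk, the activator of the loop, had 34.7, 19.1, 37.6 and 28.7 CPM at day 7 and 7.95, 9.79, 8.15 and 8.29 at day 47 (-1.81, SE 0.257, adjusted p = 2.42e-06). Its targets tim and per, which encode the repressors, were higher: tim had 118, 240.2, 106 and 293 CPM at day 7 and 686, 684, 662 and 685 at day 47 (1.84, SE 0.291, adjusted p = 1.32e-05), and per rose by 1.52. The photoreceptor cry fell by 1.21. For Clk, tim, per and cry the ages did not overlap. The time of day at which flies of each age were collected is not stated, and its part in these values was not tested.

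Outside the lists, the 12 largest rises under the rule for named genes started from group means of 5.09 CPM or less at day 7. Alp9 and Alp10, alkaline phosphatases, had 0.131, 0.227, 0.130 and 2.11 CPM and 0.0436, 0.182, 0.130 and 1.25 CPM at day 7, against 19.9, 188, 72.6 and 46.8 and 15.0, 147, 55.7 and 36.1 at day 47 (log2 fold changes 6.96 and 7.28, adjusted p = 0.00369 and 0.00358). The 4 day 47 libraries differed among themselves by a large factor, with replicate 2 highest, the library that also had the highest gut marker sum of 12260 CPM. CG43055, CG31446, CG7542, CG15043, Diedel3, CG13324, CG10943, CG10910, CG33346 and Nazo made up the rest. CG31446 had 0.0872 CPM in 1 day 7 library and 0 in the other 3, so that its fitted fold change depends on the prior count and is not given; the others of the rest ran from 4.74 to 7.70. Of the 12, 6 remained called when testis, eye and gut marker sums entered the fit: CG43055, CG15043, CG13324, CG10910, CG33346 and Nazo; CG10943 also lost its call without day 47 replicate 3 (adjusted p = 0.0888). Nazo, an antiviral effector induced through STING signalling, had 0.698, 0.227, 0.520 and 0.516 CPM at day 7 and 5.06, 4.69, 35.7 and 7.33 at day 47 (4.74, SE 0.811, adjusted p = 4.32e-05).

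The 12 largest falls were steadier, and 11 of them remained called with the same covariates. The other was Rh5, which is itself a member of the eye marker list. Its lost call in that fit is therefore not a separate test. CG13026 had 29.6, 27.0, 9.23 and 8.51 CPM at day 7 and 0.339, 0.342, 0.340 and 0.235 at day 47 (-5.87, SE 0.513, adjusted p = 3.00e-10). CG13177 had 42.5, 48.8, 19.6 and 28.3 CPM at day 7 and 1.65, 1.66, 1.59 and 1.98 at day 47 (-4.33, SE 0.288, adjusted p = 9.41e-13). Nplp3, which encodes neuropeptide-like precursor 3, had 238, 246, 94.3 and 124 CPM at day 7 and 17.2, 13.6, 14.4 and 15.5 at day 47 (-3.53, SE 0.321, adjusted p = 5.57e-10). Lack of overlap between the ages was a condition of the rule that chose these genes, so that it adds nothing here. Lsp2, a larval storage protein still made by the adult fat body, went from 838 CPM (SD 507) to 73.5 (SD 33.2), although the summed fat body markers were not lower. Rh5, a rhodopsin, had 42.8 CPM in day 7 replicate 4, the library with the highest eye marker sum, and its call was lost without it (adjusted p = 0.0789). Cpr72Ec had 104 CPM in the same library and 3.63 to 13.3 in the other day 7 libraries, and hll, CG2663, CG17560, CG6034, Scp1 and Cpr100A complete the set.

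The same contrast in w1118 was set beside it, and the difference between the strains' age effects was tested as an interaction. It was called for 212 of 12939 features (1.64%), 150 with a more positive age effect in Hsp70-null (1.16%) and 62 with a more negative one (0.479%); 120 of the 212 were also called for age in Hsp70-null, and 143 remained without day 7 replicate 2. Without day 7 replicates 2 and 4 the count was 79, and leaving out any 1 of the 16 libraries of both strains gave 119 to 289. The balance of directions depended on the model, since a fit with a replicate block gave 230 more positive and 320 more negative. Sarcomere genes were in the first direction: 10 of 32 were called and none in the other, with a median interaction of 0.61. Their median age effect was -0.62 in Hsp70-null and -1.28 in w1118. The 10 were Act57B, Act79B, Act87E, Mlc2, Prm, fln, Mlp84B, Zasp67, Mhc and Zasp52. Without day 7 replicate 2 the count was 7, and without day 7 replicates 2 and 4 it was 3. Of the 10, 5 passed in all 16 fits leaving out 1 library each (Act57B, fln, Mlp84B, Zasp67 and Zasp52), while Mlc2 passed in 8, Act87E in 6, and Prm and Mhc in 4. Zasp67 was low, at a mean of 0.374 CPM over the 8 Hsp70-null libraries. The levels behind the interactions differed between genes. Zasp52 had means of 1773 CPM in Hsp70-null and 2846 in w1118 at day 7, and 1223 and 1273 at day 47. Act87E had 848 and 1408 at day 7, and 483 and 528 at day 47. For Prm the means were 1365 and 1341 at day 7, and 917 and 556 at day 47.

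fln (flightin, a thick filament protein of flight muscle) had 46.4, 48.0, 24.5 and 21.7 CPM at day 7 and 3.66, 8.06, 6.69 and 9.05 at day 47 in Hsp70-null, and in w1118 30.0, 23.7, 25.6 and 33.0 at day 7 and 0.370, 0.655, 0.341 and 0.342 at day 47. The strains overlapped at day 7, and every w1118 library was below every Hsp70-null library at day 47. The log2 fold changes were -2.36 and -6.03, and the interaction was 3.67 (SE 0.413, adjusted p = 2.61e-06). The actin Act57B had 663, 589, 644 and 623 CPM at day 7 in w1118 and 688, 543, 557 and 768 at day 47, a log2 fold change of 0.02 against 0.93 in Hsp70-null (interaction 0.91, SE 0.172, adjusted p = 0.00241). For Act79B the effects were -2.49 in w1118 and -1.40 in Hsp70-null (interaction 1.09, adjusted p = 0.0147), and the interaction did not pass without w1118 day 7 replicate 1 (adjusted p = 0.0512). SERCA had an age effect of -3.28 in w1118 and an interaction of 0.78 (adjusted p = 0.0172), which did not pass without w1118 day 7 replicate 1 or without Hsp70-null day 47 replicate 2. The Mhc interaction of 0.92 (adjusted p = 0.0389) had an adjusted p of 0.0738 without Hsp70-null day 7 replicate 2.

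**Figure D5:**
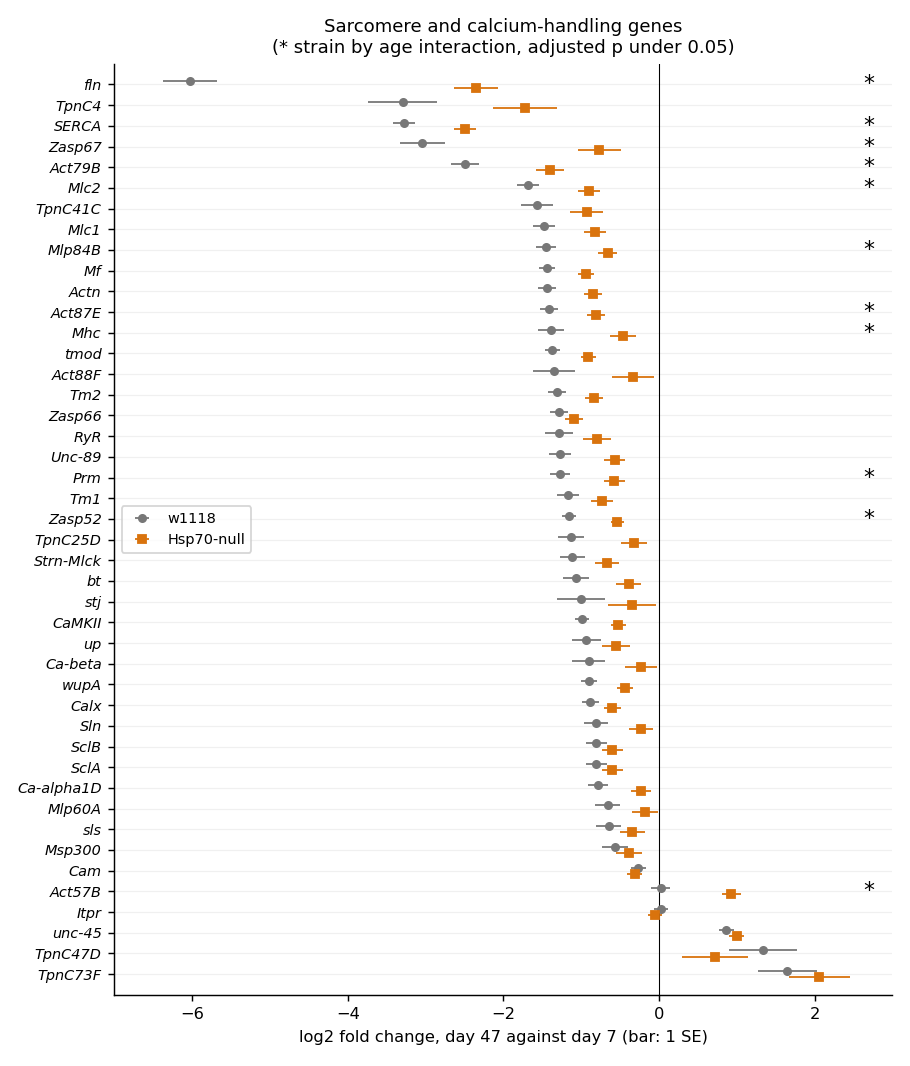
Log2 fold change between day 47 and day 7 of the sarcomere and calcium-handling genes in w1118 (circles) and Hsp70-null (squares), with bars of 1 SE; asterisks mark an interaction with an adjusted p under 0.05. Most genes lie below 0 in both strains and further below in w1118, with fln at -6.03 against -2.36, and Act57B at 0.02 against 0.93.

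Energy metabolism lists fell in both strains, with median age effects in w1118 of -1.01 for glycolysis, -0.81 for complex I and -1.05 for complexes II to V. Few single genes differed: ND-23 and ND-B8 of complex I, and UQCR-Q and SdhC of complexes II to V, all with a more positive age effect in Hsp70-null, and of these ND-23 and SdhC did not pass without day 7 replicate 2 and passed in 2 of 16 fits leaving out 1 library each. ND-B8 had 4.82 CPM (SD 2.86) at day 7 and 0.905 (SD 0.426) at day 47 in Hsp70-null against 6.26 (SD 0.530) and 0.144 (SD 0.0882) in w1118 (interaction 3.00, SE 0.559, adjusted p = 0.00200). UQCR-Q, a subunit of complex III, had an interaction of 0.98 (adjusted p = 0.00372). Treh, the enzyme that splits trehalose, went the other way: it fell by 0.47 in Hsp70-null (not passing with total counts) and had 534 CPM at both ages in w1118 (interaction -0.47, SE 0.113, adjusted p = 0.0210), a difference that passed in 9 of 16 fits leaving out 1 library each.

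Cytochrome P450 genes were the list with most interactions in the negative direction, 6 of 80 and none in the other: Cyp6a8, Cyp4e3, Cyp6a17, Cyp6a14, Cyp313a1 and Cyp12d1-p. Without day 7 replicate 2, Cyp6a14 (adjusted p = 0.0594) and Cyp12d1-p (0.0524) did not pass, and 4 of the 6 remained. Cyp6a8, Cyp4e3 and Cyp313a1 passed in all 16 fits leaving out 1 library each, and the other three in 3 or 4. Cyp313a1 fell by 2.17 in Hsp70-null and had a log2 fold change of -0.63 in w1118 (interaction -1.54, SE 0.220, adjusted p = 0.000101). Cyp4e3 had 152, 118, 115 and 128 CPM at day 7 and 99.0, 106, 72.2 and 94.7 at day 47 in Hsp70-null, a change that did not pass (-0.46, adjusted p = 0.290), against 18.3 CPM (SD 4.70) and 100.04 (SD 74.1) in w1118 (interaction -2.92, adjusted p = 0.000592). For Cyp4e3 the strains were thus apart at day 7 and overlapped at day 47. In cuticle proteins 5 of 49 had a positive interaction (3 without that library), among them Cpr62Bc (3.41, adjusted p = 4.07e-06); Cpr62Bb had 156 CPM (SD 29.1) and 191 (SD 18.5) in Hsp70-null and 174 (SD 31.0) and 75.7 (SD 12.7) in w1118 (interaction 1.49, adjusted p = 4.71e-05).

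Single members of the immune, stress and sensory lists differed between the strains as well. Def, the antimicrobial peptide defensin, had 40.8, 6.85, 19.2 and 35.1 CPM at day 7 and 29.1, 16.3, 73.3 and 42.9 at day 47 in Hsp70-null, a change that did not pass (0.67, adjusted p = 0.317), against 5.76 CPM (SD 2.23) and 116 (SD 57.7) in w1118 (interaction -3.67, SE 0.738, adjusted p = 0.00446). TotX, a Turandot stress gene, had 14.9, 14.2, 13.1 and 16.4 CPM at day 7 and 18.9, 16.9, 21.3 and 21.9 at day 47 in Hsp70-null, which did not pass either (0.43, adjusted p = 0.247), against 139 CPM (SD 32.2) and 44.4 (SD 21.1) in w1118 (interaction 2.08, adjusted p = 0.00326). GstD10, a glutathione transferase, went from 3.97 CPM (SD 1.24) to 6.53 (SD 3.66) in Hsp70-null and from 0.818 (SD 0.196) to 7.43 (SD 1.69) in w1118 (interaction -2.46, adjusted p = 0.00720). All 3 passed in the 16 fits leaving out 1 library each, and GstD10 did not pass without day 7 replicates 2 and 4. The metallothionein MtnE, with an interaction of -3.05 (adjusted p = 0.0420), passed in 4 of the 16.

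The pigmentation gene yellow-b had 51.6 CPM (SD 3.81) and 51.1 (SD 3.20) in Hsp70-null, against 49.5 (SD 3.17) and 25.2 (SD 5.22) in w1118 (interaction 0.96, SE 0.145, adjusted p = 0.000180). The odorant receptor gene Or71a had 2.07 CPM (SD 0.457) and 1.67 (SD 0.255) against 1.72 (SD 0.385) and 0.353 (SD 0.0714), an interaction of 1.97 (adjusted p = 0.00160). For both genes the strains overlapped at day 7, and w1118 was lower than Hsp70-null in every library at day 47. The integrin gene if had an interaction of 0.71 (adjusted p = 0.0122) that did not pass without day 7 replicates 2 and 4, and Obp99d, at a mean of 0.236 CPM over the 8 Hsp70-null libraries, one of 2.48 that passed in 6 of the 16 fits.

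Outside the lists, CG42329 had the interaction with the lowest p-value in the negative direction. It had 69.9, 49.0, 54.0 and 44.3 CPM at day 7 and 8.88, 8.91, 6.19 and 7.04 at day 47 in Hsp70-null, and 3.95 CPM (SD 1.23) and 6.51 (SD 1.84) in w1118. The Hsp70-null libraries were far above w1118 at day 7 only. Its interaction was -3.53 (SE 0.319, adjusted p = 2.53e-08). In the positive direction, Nplp3 fell less in Hsp70-null (-3.53 against -5.78, interaction 2.25, adjusted p = 0.00199). CG10936 did likewise (-0.75 against -2.44, interaction 1.68, adjusted p = 3.78e-06). tx (taxi, a bHLH transcription factor) rose by 1.18 in Hsp70-null and had 0.27 in w1118 (interaction 0.91, adjusted p = 6.89e-05). The long noncoding RNA lncRNA:CR31781 had 0.69 and -0.42 (interaction 1.11, adjusted p = 4.71e-05), and CG8086 had 0.28 and -0.79 (interaction 1.07, adjusted p = 7.23e-05).

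By class of transcript, 1641 of the 11559 protein-coding genes tested were higher and 1818 lower. Noncoding RNAs had 81 higher and 71 lower of 632. Transposable element insertions had 81 higher (15.8%, against 14% of all features) and 19 lower (3.7%, against 14.9%) of 514 tested, with a median of 0.29, and 59 and 15 of these calls remained without day 7 replicate 2. Reads of near-identical copies can be split among insertions in the authors' counting, so that the call of any single insertion is uncertain.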

How the data were processed

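RNA sequencing libraries of male legs were analysed, 4 pools of 15 flies in each of 10 groups. The deposited table holds raw read counts for 23932 features in 40 libraries; all columns matched a label, and 0 were left unmapped. HISAT2 2.1.0, kallisto 0.44.0 and the build BDGP6 are named, without a role, in the submitters' processing notes; the counting tool and whether it used strand are not given in the sources used here. Symbols, classes and overlaps were taken from the Ensembl BDGP6.54 annotation by identifier (23851 matched).

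Counts were tested with edgeR 4.0.16 (limma 3.58.1, R 4.3.3): features kept by expression per group, TMM scaling, 1 mean for each of 10 groups over 40 libraries with 30 residual degrees of freedom, the quasi-likelihood F test, and Benjamini-Hochberg adjustment at 0.05. The contrasts were day 47 against day 7 in Hsp70-null, and that difference minus the same in w1118 (the interaction). Of the features, 10993 were not tested. Gene levels are CPM after TMM scaling, tissue sums are CPM of the library total, and list medians by library use a pseudocount of 0.5 CPM. Standard errors (SE) were derived from the log2 fold change and its F statistic. The procedure was checked on simulated counts. Depth was 24190456 to 28532988 counts at day 7 and 35144736 to 38184917 at day 47; where a library has 0 counts, a floor of 3 counts applies, which covers counting error only.

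Genes were named by rule among features with a symbol, a mean of at least 5 CPM, no overlap between the ages, and a call kept without day 7 replicate 2: the 12 largest changes in each direction, the 6 interactions with the lowest p-value in each direction (without the overlap condition), up to 4 called members of each list, and 6 lower calls lost without that library. Members of the sarcomere and calcium-handling lists and list members with an interaction were named in addition. The members and lists were chosen with earlier results of these data known. Alternatives were RLE scaling, DESeq2 1.42.0, other filters, the 8 libraries alone, a replicate block, robust estimation, a testis covariate, thinning of day 47, and leaving out each library or those with testis markers. Total-count scaling, the testis, eye and gut covariates, a fit of 7 libraries alone and leaving out day 7 replicates 2 and 4 were chosen after seeing the data.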

Additional observations from a re-analysis of the deposited data

Results flagged for a closer look

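Single libraries stood apart within a group of 4 (a gap to the nearest other library above 0.829 of the range) more than once; chance alone singles out about 1 in 20 groups. Among the tissue sums, the testis list reached 4040 CPM in day 7 replicate 2 and 101 CPM in day 47 replicate 2, the accessory gland list 58 CPM in day 7 replicate 1 and 39.6 CPM in day 47 replicate 4, and the eye list 8220 CPM in day 7 replicate 4 and 1260 CPM in day 47 replicate 4.

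Day 7 replicate 2 was the high library for CG18628 (1070 CPM), CG10407 (245 CPM), CG6628 (53.3 CPM), CG42827 (17.9 CPM) and Cyt-c1L (7.04 CPM). Day 7 replicate 4 was the high library for Cpr72Ec (104 CPM), Rh5 (42.8 CPM), CG10910 (16.2 CPM), Alp9 (2.11 CPM), CG33346 (1.98 CPM), CG7542 (1.29 CPM) and Alp10 (1.25 CPM). The only day 7 library above 0 for CG31446 was replicate 1, at 0.0872 CPM. At day 47, CG10910 (256 CPM) and Nazo (35.7 CPM) were highest in replicate 3, and Diedel3 (101 CPM) in replicate 2. Cpr72Ec (1.9 CPM), Rh5 (2.5 CPM), CecC (17.4 CPM) and CG13177 (1.98 CPM) stood apart upward in replicate 4. CG13026 stood apart downward in the same library, at 0.235 CPM.

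Other single libraries stood apart by smaller amounts. At day 47 they were those for Rpn1 (134 CPM), GstZ2 (31.6 CPM), Ir76a (2.48 CPM), tim (662 CPM) and chico (73.6 CPM). At day 7 they were those for Trxr-1 (284 CPM), CheB38c (45.7 CPM), Nlg1 (59 CPM), mt:ND1 (2310 CPM), mt:ND4L (101 CPM) and mt:ND6 (63.5 CPM).

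The age effect differed between the strains by the interaction test for named genes in both directions. It was more positive in Hsp70-null for fln (3.67), Nplp3 (2.25), CG10936 (1.68), Cpr62Bb (1.49), lncRNA:CR31781 (1.11), CG8086 (1.07), tx (0.91) and SERCA (0.78). Cpr76Bd (1.32) passed in 11 of 16 fits leaving out 1 library each and did not pass without Hsp70-null day 7 replicate 2 (adjusted p = 0.0517). It was more negative for CG42329 (-3.53), Cyp4e3 (-2.92), Cyp313a1 (-1.54), hui (-1.44), CG17224 (-1.25), lncRNA:CR43459 (-1.22) and Treh (-0.47). The gene hui had no called age effect in Hsp70-null (log2 fold change -0.12) and a log2 fold change of 1.32 in w1118, while CG17224 had 0.82 and 2.07.

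Among the other list members, the age effect was more positive in Hsp70-null for the sarcomere genes Zasp67 (2.28), Act79B (1.09), Mhc (0.92), Act57B (0.91), Mlp84B (0.79), Mlc2 (0.78), Prm (0.70), Zasp52 (0.62) and Act87E (0.60). The same direction was seen for the respiratory chain genes ND-B8 (3.00), UQCR-Q (0.98), SdhC (0.66) and ND-23 (0.53), and for the cuticle genes Cpr64Ac (5.11), Cpr62Bc (3.41) and Cpr64Aa (2.08). It was seen too for Obp99d (2.48), TotX (2.08), Or71a (1.97), yellow-b (0.96) and if (0.71). Cpr64Ac had a mean of 0.0612 CPM over the 8 Hsp70-null libraries and 0 in some of them, so that its value rests on few counts. Cpr64Aa, at a mean of 0.357 CPM, passed in 3 of 16 fits leaving out 1 library each. Its interaction did not pass without Hsp70-null day 7 replicate 2 (edgeR adjusted p = 0.0637). The effect was more negative for Def (-3.67), Cyp6a8 (-3.19), MtnE (-3.05), Cyp12d1-p (-2.61), GstD10 (-2.46), Cyp6a17 (-1.14) and Cyp6a14 (-1.03). Of all 35 list members with an interaction, 18 passed in every fit leaving out 1 library. Day 47 libraries that stood apart were those for Mhc (5100 CPM), MtnE (2.1 CPM) and Cyp6a17 (144 CPM).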

How the results depend on the processing

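The count of 3744 age calls stayed within 1.5 times of itself under RLE scaling, DESeq2, both other filters, the 8 or 7 libraries alone, the replicate block (4037), robust estimation, a testis covariate and thinning. It moved to 1894 (871 higher, 1023 lower) without day 7 replicates 2 and 4, to 1955 (907, 1048) with testis, eye and gut covariates, and to 6633 (5652, 981) with total counts. Leaving out 1 library gave 2594 to 4087 calls, 1309 to 1772 higher and 1278 to 2315 lower, lowest without day 47 replicate 3. Without a filter, 60.3% of calls were higher. The interaction count of 212 became 439 with DESeq2 (266 higher, 173 lower), 124 without a filter (76 higher), 79 without day 7 replicates 2 and 4 (51, 28), and 348 with total counts (288 higher). Higher calls were 99 without the libraries with testis markers, and 117 of 195 with a testis covariate. Leaving out 1 library of either strain gave 119 to 289, 88 to 203 higher and 27 to 86 lower, with 119 to 137 without w1118 day 7 replicate 1, w1118 day 47 replicate 3, or Hsp70-null day 47 replicate 1 or 2. With the replicate block it was 550 (230, 320); same-numbered libraries of both ages correlated at -0.218, 0.272, 0.292 and 0.338 in Hsp70-null, each best with its own number except replicate 1, and at -0.0878, -0.292, -0.148 and 0.12 in w1118. Since not every pair was above 0.1, and the labels state no pairing, the numbers were not taken to pair the libraries.

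A change of sign was seen for CG10407 (0.40 without day 7 replicate 2 or all libraries with testis markers, 0.38 with the 7 libraries, 0.31 without replicates 2 and 4, and -4.68 to 0.40 over fits leaving out 1 library), CG42827 (0.11, 0.11, 0.098 and 0.65 likewise, and -4.15 to 0.11) and hui (-0.22 to 0.033, the latter without day 7 replicate 4). With total counts it was seen for hui (0.20), PPP1R15 (0.13), mt:ND6 (0.082), dlg1 (0.069) and chico (0.0095). The causes were not tested. Depth limits genes near 0 at day 7, such as CG31446, where a fold change rests on few counts.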

Other observations

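Groups in this paragraph and the next were chosen after their values were seen. All 8 genes of the chaperonin CCT, the ring that folds actin and tubulin, rose between day 7 and day 47 in Hsp70-null, with log2 fold changes of 0.54 to 1.08 (median 0.71), and all 8 calls remained without day 7 replicate 2. CCT5 had 57.7, 62.8, 65.6 and 60.7 CPM at day 7 and 125, 125, 137 and 134 at day 47, without overlap (1.08, SE 0.0695, edgeR adjusted p = 8.74e-13). In w1118 all 8 were called higher too, with a median of 0.66, and 0 of 8 had an interaction.

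Messenger RNAs encoded by the mitochondrial genome were lower for 11 of 13 tested (median -1.12), of which 9 remained without day 7 replicate 2. Their summed level was 93950, 71820, 48100 and 59910 CPM at day 7 and 26920, 26730, 36710 and 37670 at day 47, without overlap. In w1118 6 of the 13 were called lower and 1 higher (median -0.59), and 0 of 13 had an interaction. The mean sum in w1118 went from 49950 CPM (SD 10490) to 28150 (SD 3511). The large ribosomal RNA mt:lrRNA went from 162730.0, 124110.0, 75285 and 80986 CPM to 18806, 15547, 28927 and 31198 (-2.23, adjusted p = 3.85e-07). It was lower in w1118 too (-1.68, edgeR adjusted p = 1.59e-05). Of 32 insertions of the retrotransposon copia, 15 were higher and 0 lower (median 2.17), and 11 remained without that library. Their summed level was 20.7, 10.99, 13.3 and 12.6 CPM at day 7 and 47.0, 60.8, 106 and 61.0 at day 47, and in w1118 15 were called higher with a median of 2.25. Reads of near-identical copies cannot be assigned to 1 insertion with certainty.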
